A study of Mus musculus with 6 samples.

Results

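Bone marrow cells that carried the fusion oncogene BCR-ABL together with the kinase Blk were compared with marrow cells that carried an empty vector, across 19938 named genes. The comparison rests on 4 of the 6 arrays of the series, chosen by their sample titles: 2 biological replicates titled as BCR-ABL-Blk leukemic stem cells and 2 titled as vector hematopoietic stem cells. All groups came from wild-type C57BL/6 mice, 8 weeks old by the labels, and in all groups the donor marrow had been exposed to 5-fluorouracil, infected with a retrovirus and transplanted into C57BL/6 recipients. The virus held GFP alone in the vector group and BCR-ABL, Blk and GFP in the BCR-ABL-Blk group; another group, with BCR-ABL and GFP but no added Blk, lent its spread to the test and is set beside the results. At 14 days after transplantation GFP-positive cells without lineage markers but with c-Kit and Sca-1 on their surface (the LSK gate) were sorted, and their total RNA was hybridised to whole-transcript Affymetrix arrays, with 1 array per sample. The gate enriches stem cells and multipotent progenitors but is not a pure cell type. The number of mice behind a replicate is not in the labels, so p-values measure the spread between these samples. No source used here gives the form of Blk, the species of either transgene or the promoter that drives them.

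The fusion of BCR and ABL1 that defines chronic myeloid leukemia is a tyrosine kinase that cannot be switched off. It signals through adaptor proteins to Ras, PI3 kinase and STAT5, and in mice its expression in marrow gives a myeloid leukemia that is maintained by cells within the LSK gate. Blk is a Src family kinase that signals downstream of the B cell receptor and is otherwise little expressed in blood cells. Normal LSK cells express stem cell factors such as Meis1 at the same time as low levels of genes of the lineages they can still enter, a state known as lineage priming.

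The probe set values were on a log2 scale and were quantile normalized between arrays before any comparison, since the medians of the deposited values ran from 7.01 to 7.52. Without that step the median gene was 0.15 higher in BCR-ABL-Blk than in vector cells, so every value below is relative to a whole-array shift that the normalization removes. Over all genes the 2 BCR-ABL-Blk arrays correlated at r = 0.992 and the 2 vector arrays at r = 0.987; the vector arrays were the less alike pair, with an estimated array weight of 0.736 against 1.13 for BCR-ABL-Blk. The number of arrays limits the precision, and the median standard error of a difference was 0.129. As a check of the gate, Kit, the gene of c-Kit, read 10.71 and 10.92 in vector cells against 10.74 and 10.33 in BCR-ABL-Blk cells, well above the median gene level of 7.50, and the groups overlapped. Cd34, a surface sialomucin of progenitors, read 11.54 and 11.59 in vector and 11.97 and 11.87 in BCR-ABL-Blk cells (difference 0.36, SE 0.08, limma adjusted p = 0.158). Ly6a, the gene of Sca-1, was not analysed here.

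Blk, the gene the virus added, was examined first. Its probe set 10420758 read 7.14 and 6.95 in vector cells, 6.54 and 6.60 in BCR-ABL cells and 6.95 and 7.005 in BCR-ABL-Blk cells. The BCR-ABL-Blk arrays overlapped the vector arrays and lay above both BCR-ABL arrays. From BCR-ABL they differed by 0.41 (95% interval 0.155 to 0.66, limma adjusted p = 0.999). Against vector the difference was −0.07 (95% interval −0.33 to 0.18, limma adjusted p = 0.914), and it was 0.08 without normalization between arrays and 0.03 without vector replicate 1. This probe set therefore does not separate the BCR-ABL-Blk cells from the vector cells, and all its values lie below the median gene level. Among the other Src family kinases, Fyn, which acts in lymphocyte receptor signalling, read 9.53 and 9.24 in vector and 10.12 and 10.43 in BCR-ABL-Blk cells (difference 0.89, SE 0.16, adjusted p = 0.101). Yes1, a widely expressed member, was at 0.26, and Fgr, a kinase of myeloid cells, at −0.14. Of the 7 measured genes of this list, which includes the regulator Csk, 0 passed over all genes, and their median difference was −0.02. The probe sets of Abl1 and Bcr, the mouse genes related to the parts of the oncogene, differed by 0.02 and 0.03 (adjusted p = 0.989 and 0.977), with a sign that other settings turned.

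Between BCR-ABL-Blk and vector cells, 19 genes were higher and 9 lower at a Benjamini-Hochberg adjusted p under 0.05 by limma, which is 0.0953% and 0.0451% of the genes tested. Of these 15 and 7 differed at least 2-fold. The higher genes were led by the aldo-keto reductases Akr1c12 and Akr1c13, the differentiation-linked gene Ndrg2, the adhesion molecule Ncam2 and the protease Gzmb; the lower genes by Cybb, Slc40a1, Ccr2, Fgl2 and H2-Ab1, which monocytes, macrophages and antigen-presenting cells express. At an unadjusted p under 0.05 there were 1059 higher (5.31%) and 819 lower genes (4.11%), 9.42% in all. Without regard to any test, 51.1% of genes lay above 0 and 48.7% below. The groups did not overlap for 37.2% of all genes (19.7% higher and 17.5% lower), and for all 28 called genes.

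The counts depended on single arrays. Without vector replicate 1 there were 339 higher and 221 lower genes, without vector replicate 2 there were 58 and 169, without BCR-ABL-Blk replicate 1 there were 10 and 0, and without BCR-ABL-Blk replicate 2 there were 20 and 0. With only the 4 arrays of the groups compared, 4 were higher and 0 lower. The BCR-ABL arrays enter the main fit only through the shared estimate of spread, and that pair correlated at r = 0.994. Of the 28 called genes, 4 were still called with only the 4 arrays compared, so the other calls rest on that shared estimate. Arrays left out of a fit stayed in the normalization and in the choice of probe sets. The same 28 genes were still called without either vector array; without BCR-ABL-Blk replicate 1 or 2, 6 and 7 of them were. With each array centred on its median in place of quantile normalization, 40 genes were higher and 31 lower, so the share of calls that were higher was 56.3% in place of 67.9%. Akr1c12, Akr1c13 and Ndrg2 passed under each of the 15 alternative settings run, and Ifitm1 under 13 of them.

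**Figure D1:**
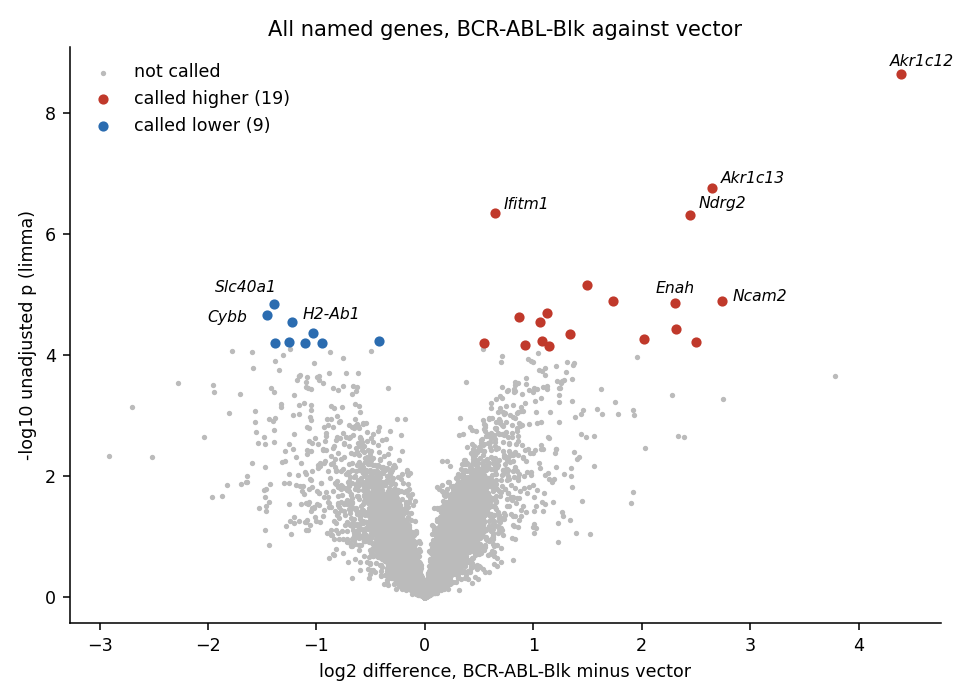
Each point is 1 of 19938 genes; the x axis is the log2 difference of BCR-ABL-Blk minus vector and the y axis −log10 of the unadjusted limma p. The 19 genes called higher are red and the 9 called lower are blue; Akr1c12, at a difference of 4.39, stands farthest from the rest.

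The largest rise was that of Akr1c12, an aldo-keto reductase, an enzyme family that reduces steroids, prostaglandins and reactive aldehydes with NADPH. Akr1c12 read 6.98 and 6.87 on the vector arrays against 11.34 and 11.29 on the BCR-ABL-Blk arrays. All its vector values lay below the median gene level and all its BCR-ABL-Blk values far above it. The difference was 4.39 on the log2 scale (SE 0.13, limma adjusted p = 4.4e-05), which is 21.0-fold in measured signal. Akr1c13 read 8.99 and 8.60 in vector and 11.45 on both BCR-ABL-Blk arrays, a rise of 2.65 (SE 0.14, adjusted p = 0.00173), or 6.29-fold. These 2 genes are close paralogs, so the share of each in either probe set's signal is uncertain. Their start regions are shown because the pair rose together and because they show how alike the genes are. The windows run from 250 bases before to 50 after the annotated start (RefSeq, GRCm38.p6): chr13:4279350-4279649 on the minus strand for Akr1c12 and chr13:4190937-4191236 on the plus strand for Akr1c13. Capitals mark the bases that differ in an alignment of 296 bases, of which 284 (95.9%) are identical, with 12 substitutions and 1 base of Akr1c13 opposite a gap.
Akr1c12: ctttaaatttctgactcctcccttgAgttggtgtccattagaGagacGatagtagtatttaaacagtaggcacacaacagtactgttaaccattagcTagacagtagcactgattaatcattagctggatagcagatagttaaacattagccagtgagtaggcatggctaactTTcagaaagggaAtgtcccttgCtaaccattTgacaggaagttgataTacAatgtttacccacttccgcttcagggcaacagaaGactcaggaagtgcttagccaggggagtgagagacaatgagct
Akr1c13: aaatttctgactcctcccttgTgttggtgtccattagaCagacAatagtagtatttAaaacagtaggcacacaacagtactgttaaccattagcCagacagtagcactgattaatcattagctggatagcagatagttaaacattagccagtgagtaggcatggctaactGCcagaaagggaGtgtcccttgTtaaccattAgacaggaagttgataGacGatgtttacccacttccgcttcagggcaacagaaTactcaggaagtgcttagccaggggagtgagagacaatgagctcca

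Of the 14 measured aldo-keto reductase genes, these 2 rose and 0 fell; the median of all 14 was 0.01. Akr1c18, which inactivates progesterone, read 5.45 and 5.46 in vector and 6.15 and 6.97 in BCR-ABL-Blk cells, groups that did not overlap, at low signal (difference 1.11, SE 0.32, adjusted p = 0.308). Akr1e1 was at 0.50 (adjusted p = 0.332) and Akr1b10 at −0.52 (adjusted p = 0.459). Of 21 genes of the Nrf2 and glutathione system, which handles oxidants and electrophiles, 0 passed over all genes. Among them 4 were lower at an unadjusted p under 0.05 (limma), beside 4.11% of all genes. The list's median was −0.15, and 0.02 without normalization between arrays. Mgst2, a glutathione transferase of the membrane, was at −1.39 (adjusted p = 0.073), Gstm1 at −0.77, Gclc at −0.62 and Hmox1 at −0.80.

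Among the genes that rose were some with roles in adhesion and the actin skeleton. Ncam2, a neural cell adhesion molecule, read 5.33 and 5.43 in vector and 8.56 and 7.68 in BCR-ABL-Blk cells. Both vector values lay far below the median gene level, and the rise was 2.74 (SE 0.27, adjusted p = 0.0312). Enah, an actin regulator of the Ena/VASP family that builds cell protrusions, rose from 7.54 and 8.12 to 10.37 and 9.92 (difference 2.31, SE 0.23, adjusted p = 0.0312). The vector arrays stood below all arrays with the oncogene. Podxl, a sialomucin related to Cd34, read 7.17 and 7.02 in vector and 8.93 and 8.74 in BCR-ABL-Blk cells and rose by 1.74 (SE 0.17, adjusted p = 0.0312). Scin, an actin-severing protein, rose by 1.34 (SE 0.16) and Rsu1, a partner of the integrin-linked adhesion complex, by 0.54 (SE 0.07), both at an adjusted p of 0.049. Timp3, an inhibitor of matrix metalloproteinases, read 6.83 and 6.16 against 8.27 and 8.76 and rose by 2.02 (SE 0.24, adjusted p = 0.049). Over the list of 21 adhesion and homing genes as a whole, 2 rose (Ncam2 and Enah), 0 fell and the median was 0.01. The integrin chains Itgam and Itgb2 of myeloid cells were each at −0.61 and Itga6, a stem cell integrin, at 0.49, without passing.

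Ndrg2, a gene linked to differentiation and stress, read 7.61 and 7.83 in vector and 10.27 and 10.05 in BCR-ABL-Blk cells. The gap between the groups was many times the distance within either, and the rise was 2.44 (SE 0.15, adjusted p = 0.00241). Gzmb, the granule protease granzyme B of cytotoxic and mast cells, read 7.22 on both vector arrays, 10.26 on BCR-ABL-Blk replicate 1 and 9.19 on replicate 2. The BCR-ABL-Blk arrays thus differed from each other by more than 1 log2 unit, and the rise of 2.50 (SE 0.31, adjusted p = 0.049) was 1.97 without replicate 1 and 3.04 without replicate 2. Itm2a, a membrane protein, rose from 6.83 and 5.95 to 8.74 and 8.68 (difference 2.32, SE 0.27, adjusted p = 0.049). Prkcq, the protein kinase C isoform of T cell receptor signalling, read 7.89 and 7.79 in vector and 9.38 and 9.29 in BCR-ABL-Blk cells, with close replicates in both groups (difference 1.49, SE 0.13, adjusted p = 0.0271). Ctla2a, which resembles the inhibitory part of a cathepsin and has a near-identical neighbour gene, rose by 0.86 (SE 0.09, adjusted p = 0.0383), and Rab27b, a small GTPase of granule release, by 0.93 (SE 0.12, adjusted p = 0.0495).

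Meis1, a homeobox factor that stem cells need, rose from 9.75 and 9.44 in vector to 10.68 on both BCR-ABL-Blk arrays, a difference of 1.08 (SE 0.13, adjusted p = 0.049) or 2.12-fold. Ifitm1, an interferon-induced membrane protein that is also high in progenitors, read 12.18 and 12.13 in vector and 12.82 and 12.78 in BCR-ABL-Blk cells. Its change was small, 0.65 on the log2 scale, but its arrays lay so close together within each group (SE 0.04) that the adjusted p was 0.00241. Ppic, a cyclophilin that helps proteins fold, rose by 1.06 (SE 0.12), Maged1, an adaptor of the MAGE family, by 1.14 (SE 0.14) and Cc2d2a, a protein of the base of the cilium, by 1.12 (SE 0.12). Of the 19 genes that rose, 10 had a vector mean below the median gene level. By the definition of that level, 9969 of all 19938 genes have a mean over the 6 arrays above it. The count therefore does not set the genes that rose apart.

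**Figure D2:**
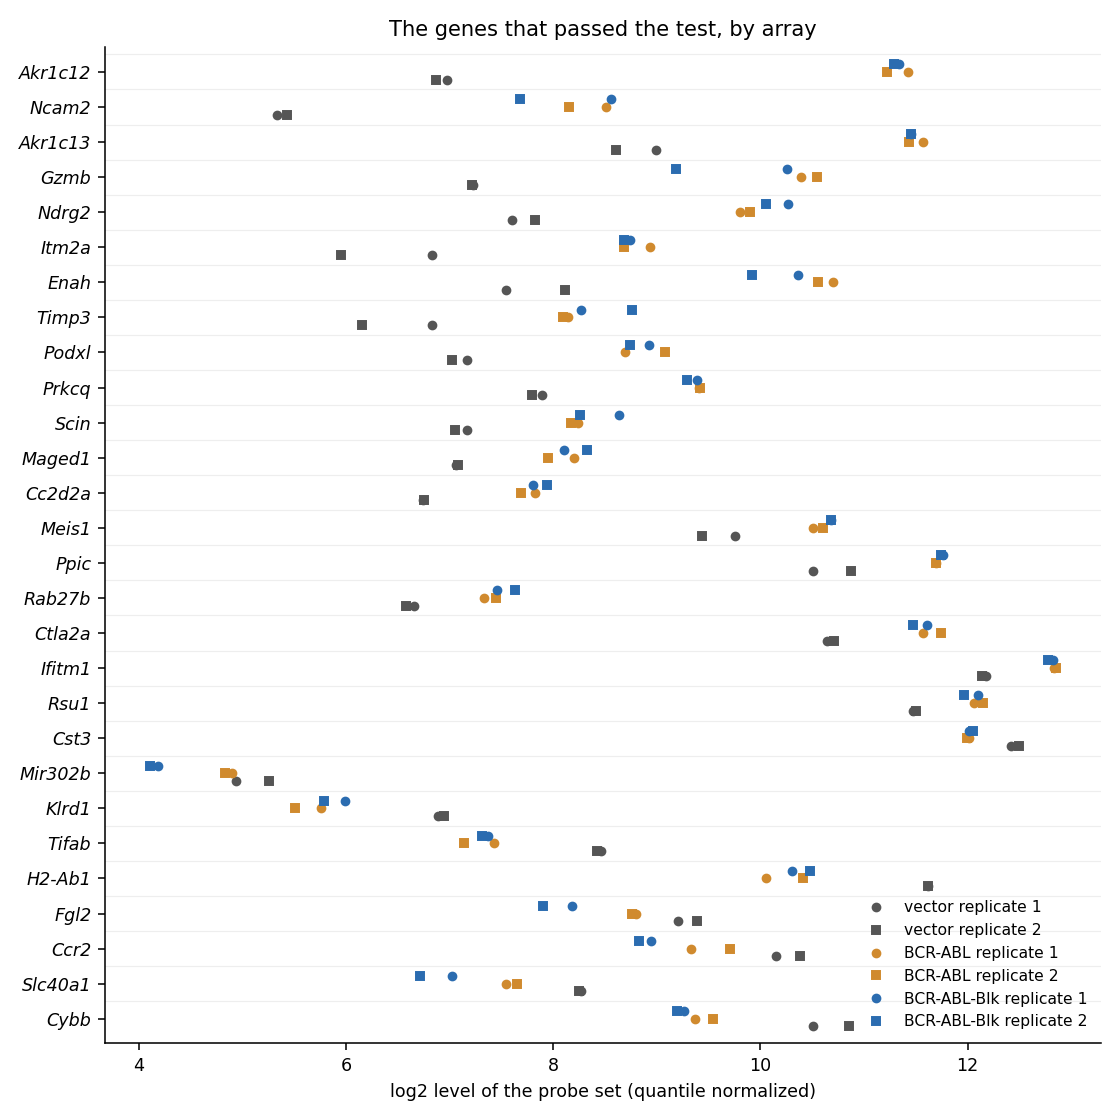
The log2 level (x axis, quantile normalized) of each of the 28 called genes on each of the 6 arrays, coloured by group and shaped by replicate. For each gene both blue BCR-ABL-Blk points lie to the same side of both grey vector points, and the BCR-ABL points (orange) show the group without added Blk.

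Of the 9 genes that fell, Cybb belongs to the list of phagocyte oxidase genes, Ccr2 and Cst3 to the monocyte list, H2-Ab1 to the MHC class II list and Klrd1 to the T and NK cell list. Cybb, which encodes the oxidant-producing chain of the phagocyte oxidase, read 10.51 and 10.86 in vector and 9.26 and 9.20 in BCR-ABL-Blk cells, a fall to well below either vector array (difference −1.45, SE 0.15, limma adjusted p = 0.0383). Ccr2, the chemokine receptor that draws monocytes from marrow, read 10.15 and 10.38 against 8.95 and 8.83 (difference −1.38, SE 0.17, adjusted p = 0.049). Fgl2, a fibrinogen-like protein that monocytes and T cells release, read 9.21 and 9.38 against 8.18 and 7.90 (difference −1.25, SE 0.15, adjusted p = 0.049). In bulk RNA, fewer cells of a type and less RNA per cell cannot be told apart, which holds for each lineage gene here. Slc40a1, the iron exporter ferroportin of macrophages and erythroid cells, read 8.27 and 8.24 in vector and 7.02 and 6.71 in BCR-ABL-Blk cells and fell by 1.39 (SE 0.14, adjusted p = 0.0312). H2-Ab1, the beta chain of the MHC class II molecule I-A, read 11.62 on both vector arrays against 10.30 and 10.48 in BCR-ABL-Blk cells (difference −1.23, SE 0.14, adjusted p = 0.0408). Tifab, an inhibitor of TRAF6 signalling, fell by 1.10 (SE 0.14) and Cst3, the secreted protease inhibitor cystatin C, by 0.42 (SE 0.05), both at an adjusted p of 0.049.

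The other 2 genes that fell, Klrd1 and Mir302b, had low signal in both groups. Klrd1, which encodes the natural killer cell receptor CD94, went from 6.89 and 6.95 to 5.99 and 5.79 (difference −1.03, SE 0.12, adjusted p = 0.049). Mir302b, a microRNA gene of pluripotent cells, went from 4.94 and 5.25 to 4.19 and 4.11 (difference −0.95, SE 0.12, adjusted p = 0.049). Signal over background was not measured, so neither value shows that the gene was expressed.

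A further 7 genes, lower in BCR-ABL-Blk cells, did not pass and filled the places left under the naming rule. Naaa, a lysosomal amidase of dendritic cells, was at −1.25, Xcr1, the chemokine receptor of cross-presenting dendritic cells, at −1.78 and B3gnt2, a glycosyltransferase, at −0.49. The metallothionein Mt2, a metal-binding protein, was at −1.60, and these 4 shared an adjusted p of 0.0517. Cd52, a surface glycopeptide of mature blood cells (−1.31), Sqor, the mitochondrial enzyme that oxidizes sulfide (−1.38), and Themis2, a signalling adaptor of B cells and macrophages (−1.02), had adjusted p from 0.0546 to 0.0568. On the other side, Plxdc2, a membrane protein singled out here after its values were seen, had the largest difference of any gene that did not pass. It read 8.34 and 6.23 in vector and 10.93 and 11.20 in BCR-ABL-Blk cells, so the vector arrays lay more than 2 log2 units apart (difference 3.78, SE 0.57, adjusted p = 0.0696).

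Whether the cells with added Blk differ from those with BCR-ABL alone was tested in the same fit. Of 19938 genes 0 passed (0%, limma, smallest adjusted p = 0.999), while 790 (3.96%) had an unadjusted p under 0.05, 293 higher (1.47%) and 497 lower (2.49%). Without normalization between arrays 79 genes passed, 66 higher and 13 lower. That setting also estimated the spread differently, as described at the end. Both comparisons with vector share the vector arrays, so their values are given side by side. For Akr1c12 the BCR-ABL arrays read 11.43 and 11.22, and BCR-ABL-Blk differed from BCR-ABL by −0.01 (95% interval −0.31 to 0.29). For Akr1c13 that difference was −0.05 (−0.38 to 0.28), for Meis1 0.12 (−0.19 to 0.43) and for Ndrg2 0.31 (−0.05 to 0.66). Among the 28 genes that passed against vector, the difference from BCR-ABL ran from −0.75 to 0.40, and 5 had an unadjusted p under 0.05, all 5 lower with Blk. Those 5 were chosen after their values were seen. Slc40a1 read 7.54 and 7.65 in BCR-ABL cells, between its vector and its BCR-ABL-Blk values, and differed from BCR-ABL by −0.73 (95% interval −1.05 to −0.41). Fgl2, at 8.80 and 8.77 in BCR-ABL cells, differed by −0.74 (−1.10 to −0.38) and Ccr2, at 9.33 and 9.71, by −0.63 (−1.03 to −0.23). For these 3 genes the groups did not overlap and the order was vector, BCR-ABL, BCR-ABL-Blk. Gzmb read 10.39 and 10.55 in BCR-ABL cells and differed by −0.75 (−1.47 to −0.03), and Mir302b by −0.71 (−0.99 to −0.44). H2-Ab1, in contrast, read 10.06 and 10.41 in BCR-ABL cells, with a difference of 0.16 (−0.16 to 0.47), and Cybb 9.37 and 9.54, with a difference of −0.23 (−0.59 to 0.13). An interval that includes 0 does not show that the groups are alike.

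**Figure D3:**
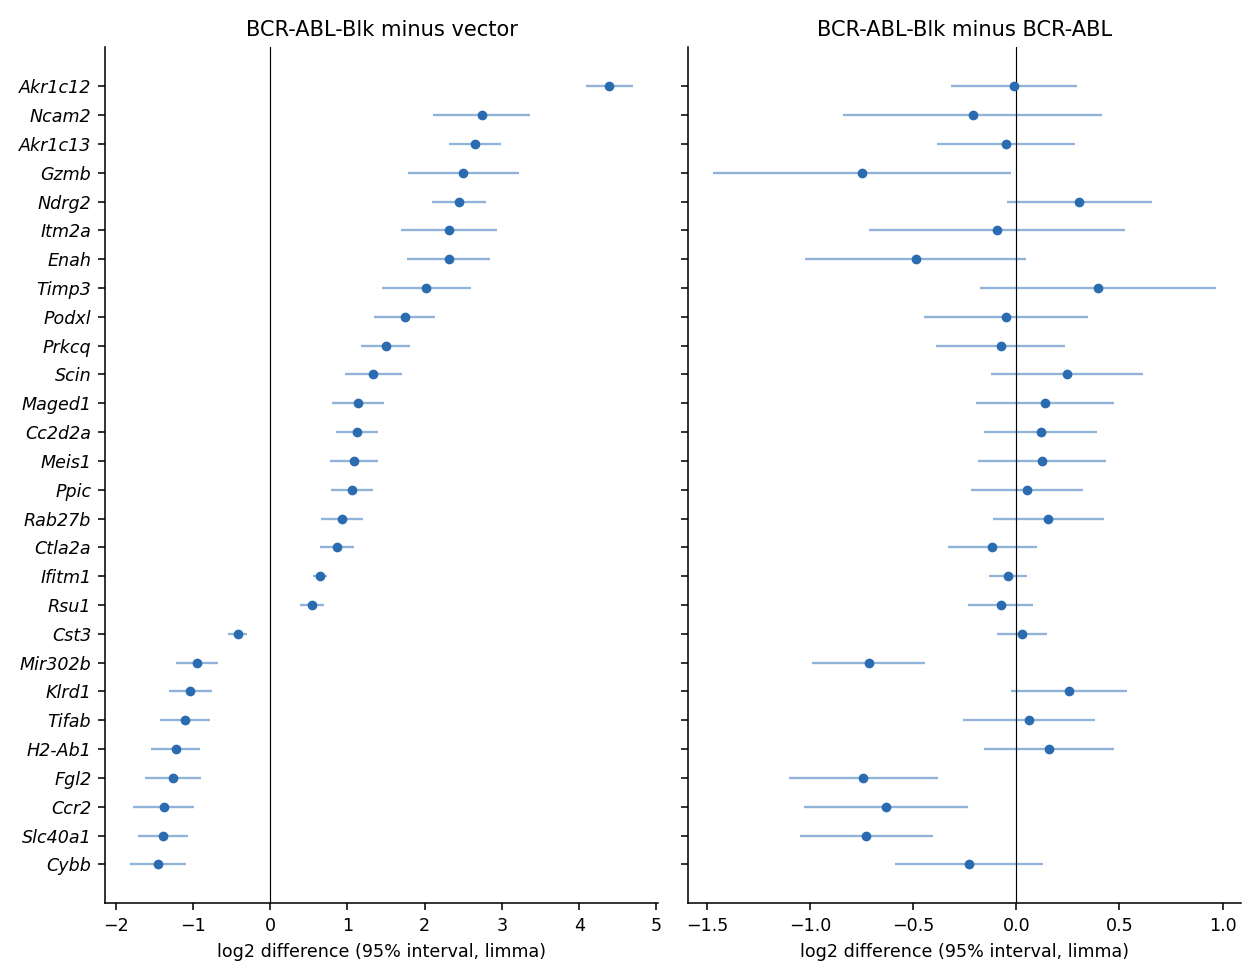
For each of the 28 called genes, the log2 difference of BCR-ABL-Blk from vector (left) and from BCR-ABL (right) with its 95% limma interval; the x axes have different scales. On the right most intervals cross 0, and those of Slc40a1, Fgl2, Ccr2, Gzmb and Mir302b lie below it.

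Stem cell genes stood mostly above 0. Among 27 genes of the LSK stem cell list 24 were above 0, and 1, Meis1, rose over all genes. At an unadjusted p under 0.05 (limma), 13 were higher and 0 lower, beside 5.31% and 4.11% of all genes. The list's median was 0.34 beside 0.0042 over all genes. For 18 of the 27 the groups did not overlap, with BCR-ABL-Blk the higher, beside 19.7% of all genes. Mecom, a transcription factor that sustains stem cells, read 7.89 and 6.54 in vector and 9.37 and 9.62 in BCR-ABL-Blk cells, with vector replicates more than 1 log2 unit apart (difference 2.28, SE 0.38, adjusted p = 0.0774). Tek, the angiopoietin receptor Tie2, read 6.45 and 6.37 against 7.32 and 7.99 (difference 1.24, SE 0.20), and the related receptor Tie1 was at 0.83, both at an adjusted p of 0.0714. Against BCR-ABL, Tek was at 0.60 (95% interval 0.14 to 1.07), while the median of the stem cell list was 0.069. BCR-ABL against vector gave a median of 0.327 for this list. Of 20 Hox genes, which pattern the body axis and support stem cells, 0 passed and 16 lay above 0. Their median was 0.15, or 0.17 without vector replicate 1 and 0.095 without vector replicate 2. Hoxa5 was at 0.86 (limma adjusted p = 0.178), Hoxc8 at 0.38, Hoxa6 at 0.35 and Hoxb5 at 0.33. Signal was low, with the Hox list's median level from 6.63 to 6.90 over the arrays, below the median gene level of 7.50.

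Genes of platelets and their precursors also stood mostly above 0. Of 15 megakaryocyte and platelet genes 14 lay above 0 and 0 passed over all genes. Among the 15, 6 were higher at an unadjusted p under 0.05 (limma), beside 5.31% of all genes. The list's median was 0.42. With BCR-ABL alone the median difference from vector was 0.48. F2r, a thrombin receptor, read 8.91 and 8.40 in vector and 9.73 and 9.71 in BCR-ABL-Blk cells (difference 1.07, SE 0.18, adjusted p = 0.0845). Vwf, the von Willebrand factor that also marks platelet-primed stem cells, read 7.67 and 7.69 against 8.37 and 8.41 (difference 0.71, SE 0.12, adjusted p = 0.0845), with close replicates in both groups. Slamf1, the surface marker CD150 of stem cells, stands in this list and in the stem cell list and was at 0.995 (adjusted p = 0.213), and Itga2b, the integrin chain CD41, was at 0.48.

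B cell genes stood lower and differed most between the vector arrays. Of 25 measured genes of B cell development 24 lay below 0 and 0 passed over all genes. Among the 25, 14 were lower at an unadjusted p under 0.05 (limma), beside 4.11% of all genes. The list's median was −0.90, and −1.08 for BCR-ABL against vector. The median gene of the list was 1.13 higher on vector replicate 1 than on vector replicate 2, and the median difference was −0.45 when replicate 1 of the vector group was left out and −1.50 when replicate 2 was. Blnk, an adaptor of pre-B cell receptor signalling, read 10.31 and 8.56 in vector and 6.95 and 6.52 in BCR-ABL-Blk cells (difference −2.71, SE 0.49, adjusted p = 0.101). Ebf1, which with Pax5 sets the B cell fate, read 10.74 and 8.68 against 7.45 and 6.16 (difference −2.91, SE 0.73, adjusted p = 0.232), and Pax5 read 9.56 and 7.95 against 7.49 and 7.06 (difference −1.49, SE 0.48, adjusted p = 0.362). Cd79b, a signalling chain of the B cell receptor, was at −1.21 and Dntt, which adds bases during receptor gene joining, at −1.39. For each of these genes the groups did not overlap, but the vector arrays differed between themselves. Of 13 genes of multipotent and lymphoid-primed progenitors, 0 passed. At an unadjusted p under 0.05 (limma), 7 were lower and 2 higher, beside 4.11% and 5.31% of all genes. The median of the 13 was −0.48, and −0.565 for BCR-ABL against vector. Il12a was at −0.80, the chromatin organizer Satb1 at −0.77, Cd48, a marker of multipotent progenitors, at 0.38 and Cd34 at 0.36. The part that B cell progenitors in the vector samples play in these values was not tested.

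Monocyte genes stood lower. The median of their gaps between the vector arrays, replicate 1 minus replicate 2, was −0.12, but single genes differed in both directions. F13a1 and Csf1r (8.37 and 8.84) were lower on vector replicate 1, while Adgre1 (8.65 and 6.93) and Ctss (11.21 and 10.79) were higher. The list's median level was 9.59 on vector replicate 1 and 10.18 on vector replicate 2. The median gap therefore does not show that the vector arrays were alike for these genes. All 16 measured monocyte and macrophage genes lay below 0, and 2 fell over all genes, Ccr2 and Cst3. Among the 16, 12 were lower at an unadjusted p under 0.05 (limma), beside 4.11% of all genes. The list's median was −0.92 and stayed between −0.83 and −0.93 when any vector or BCR-ABL-Blk array was left out. F13a1, the clotting factor chain of monocytes, read 9.40 and 10.65 in vector and 7.84 and 7.67 in BCR-ABL-Blk cells (difference −2.27, SE 0.35, adjusted p = 0.0714). Cd68, a lysosomal protein of macrophages, was at −1.15 and Ms4a6c at −1.18. Of 18 dendritic cell genes 17 lay below 0, with 0 past the test over all genes and a median of −0.36. Among the 18, 10 were lower at an unadjusted p under 0.05 (limma), beside the same 4.11%. Beside Xcr1 and Naaa, the transcription regulators Id2 and Zeb2 were at −0.76 and −0.69. The 6 oxidase genes had a median of −0.27, which moved from −0.01 without vector replicate 2 to −0.54 without vector replicate 1. Of these 6, 1 fell, Cybb; Ncf4 was at −0.68 (adjusted p = 0.469), Ncf1 at −0.31 and Cyba at −0.22.

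All 7 measured MHC class II genes lay below 0, and H2-Ab1 fell over all genes. Among the 7, 5 were lower at an unadjusted p under 0.05 (limma), beside 4.11% of all genes. The list's median was −1.06, and −1.26 for BCR-ABL against vector. Cd74, the chain that escorts class II molecules, read 10.54 and 10.51 in vector and 9.02 and 9.15 in BCR-ABL-Blk cells (difference −1.44, SE 0.28, adjusted p = 0.123). H2-Eb1 read 10.45 and 9.93 against 8.71 and 9.03 (difference −1.33, SE 0.24, adjusted p = 0.101) and H2-Aa 11.37 and 10.66 against 9.87 and 10.04 (difference −1.06, SE 0.22, adjusted p = 0.138). Ciita, the co-activator that switches class II genes on, was at −0.48 (adjusted p = 0.268). Class II promoters are known to share an X box and a Y box, the latter an inverted CCAAT element. The start regions of H2-Aa (chr17:34287774-34288073, minus strand) and H2-Eb1 (chr17:34305617-34305916, plus strand; RefSeq, GRCm38.p6) are shown because these genes were lower together, with the letters CTGATTGG, searched on both strands, in capitals.
H2-Aa: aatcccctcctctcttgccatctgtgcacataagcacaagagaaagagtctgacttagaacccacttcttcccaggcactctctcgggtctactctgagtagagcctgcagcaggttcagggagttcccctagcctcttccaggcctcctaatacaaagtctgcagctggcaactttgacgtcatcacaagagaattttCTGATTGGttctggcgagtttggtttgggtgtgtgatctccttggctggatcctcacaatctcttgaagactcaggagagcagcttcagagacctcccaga
H2-Eb1: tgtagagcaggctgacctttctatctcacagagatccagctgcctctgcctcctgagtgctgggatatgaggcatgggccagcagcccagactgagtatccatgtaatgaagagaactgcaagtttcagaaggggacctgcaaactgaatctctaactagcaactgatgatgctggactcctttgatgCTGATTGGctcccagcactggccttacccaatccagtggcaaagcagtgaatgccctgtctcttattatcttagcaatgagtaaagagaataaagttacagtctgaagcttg

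Each of these windows holds 1 match, and 4.1% of 32851 promoter windows of the same length hold any. So do 0 of 19 windows of the genes that rose and 0 of 5 of those that fell. Those windows cover 16 of the genes that rose and 5 of the 9 that fell, and H2-Ab1 was not among them. A match is a description and not a shown binding site. MHC class I and antigen processing genes, in contrast, had a median of −0.09 over 7 members, 0.07 without normalization between arrays, with 0 past the test. Psmb8, Tap1 and Tapbp were at −0.22, −0.33 and −0.30 and Tap2 at −0.09.

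Neutrophil granule genes stood lower too. Of 19 measured 18 lay below 0, with 0 past the test over all genes and a median of −0.75. Among the 19, 13 were lower at an unadjusted p under 0.05 (limma), beside 4.11% of all genes. Elane, the granule protease neutrophil elastase, read 10.84 and 12.02 in vector and 10.02 and 9.73 in BCR-ABL-Blk cells (difference −1.55, SE 0.33, adjusted p = 0.152). Haptoglobin (Hp) was at −1.54, the calcium-binding protein S100a8 at −0.70 and Lcn2, which binds bacterial iron carriers, at −1.21. The median gene of this list was 0.61 lower on vector replicate 1 than on vector replicate 2. Against BCR-ABL the list's median was −0.40 beside −0.01 over all genes. At an unadjusted p under 0.05 (limma), 6 of 19 were lower and 0 higher, beside 2.49% and 1.47% of all genes, without any gene passing. BCR-ABL against vector gave a list median of −0.25. Lcn2 read 9.08 and 9.60 in BCR-ABL and 8.32 and 7.90 in BCR-ABL-Blk cells (difference −1.23, 95% interval −1.91 to −0.56). Against vector, BCR-ABL cells differed by 0.02 for this gene.

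Erythroid genes had a median of −0.43 over 16 members, or −0.19 with vector replicate 1 left out and −0.69 with vector replicate 2 left out. At an unadjusted p under 0.05 (limma), 7 were lower and 1 higher, beside 4.11% and 5.31% of all genes. None passed over all genes. Car1, a carbonic anhydrase of early red cells, read 12.19 and 11.55 in vector and 10.43 and 9.44 in BCR-ABL-Blk cells (difference −1.94, SE 0.32, adjusted p = 0.073). Klf1, the master factor of red cell genes, read 9.27 and 9.16 against 8.37 and 7.96 (difference −1.05, SE 0.17, adjusted p = 0.0714), and the groups lay apart. Ermap was at −1.16 and Nfe2, a factor that platelets need as well, at 0.43. BCR-ABL against vector gave a median of −0.27 for the erythroid list.

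Genes of mast cells, basophils and eosinophils split. Of 21 measured, 5 were higher and 3 lower at an unadjusted p under 0.05 (limma), beside 5.31% and 4.11% of all genes. Gzmb rose over all genes. The list's median was 0.18 and turned to −0.10 without BCR-ABL-Blk replicate 1. The median gene of the list was 0.63 higher on BCR-ABL-Blk replicate 1 than on replicate 2. BCR-ABL against vector gave a list median of 0.50. The mast cell protease Cma1 read 6.91 and 6.94 in vector, 8.95 on BCR-ABL-Blk replicate 1 and 7.61 on replicate 2 (difference 1.35, SE 0.37, adjusted p = 0.279), and Cpa3, a carboxypeptidase of mast cell granules, read 9.87 and 9.56 against 11.87 and 10.28. Fcer1a, the binding chain of the IgE receptor, read 7.51 and 6.67 against 10.03 and 7.19, so its groups overlapped. Cyp11a1 was at 1.21, while Prg2, the major basic protein of eosinophils, was at −1.11 (adjusted p = 0.0955). Whether the share of mast cell precursors moves Gzmb was not tested.

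The median over 22 T and NK cell genes was −0.03, and 0.11 without normalization between arrays; Klrd1 fell, and the adaptor Lat (1.09, adjusted p = 0.0714), Thy1 (1.46, adjusted p = 0.108) and Cd8a (−0.39) did not pass. Cd3e and Cd3d read low in both groups, with means of 7.37 and 7.42 and of 6.19 and 6.13 in vector and BCR-ABL-Blk cells. Other members of the list read higher. In the same order, Nkg7 had means of 11.61 and 11.47, Thy1 of 9.68 and 11.14 and Lat of 9.41 and 10.50. The median over 16 stromal and endothelial genes was −0.04, and 0.14 without normalization between arrays, with 0 past the test; Tek, which stem cells express as well, and Sparc (0.47), Pdgfrb (0.35) and Kdr (0.22) had the smallest p.

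**Figure D4:**
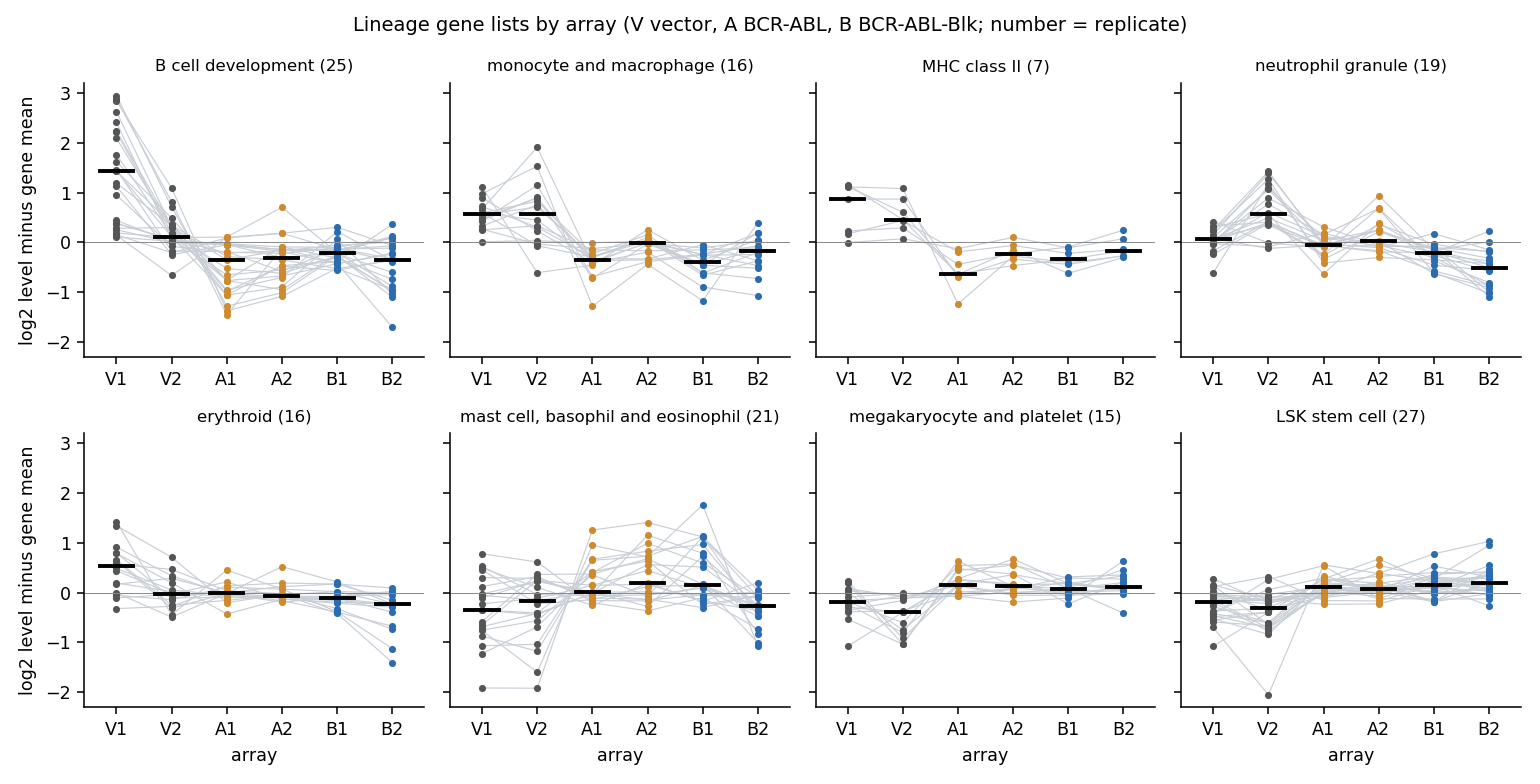
Log2 level of each member of 8 gene lists on each array, minus that gene's mean over the 6 arrays (y axis); V, A and B are vector, BCR-ABL and BCR-ABL-Blk with the replicate number, thin lines join 1 gene and black bars are the list's median. B cell genes are highest on vector replicate 1, neutrophil granule genes on vector replicate 2, and mast cell genes differ between the BCR-ABL-Blk replicates.

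Among signalling targets, STAT5 is the transcription factor that BCR-ABL and cytokine receptors activate, and it induces its own inhibitors Socs2 and Cish. Socs2 read 8.96 and 7.21 in vector and 10.89 and 10.78 in BCR-ABL-Blk cells. The vector arrays lay more than 1 log2 unit apart and both stood below the others (Socs2 difference 2.75, SE 0.47, adjusted p = 0.0863). Cish read 7.66 and 7.19 against 8.12 and 8.30 (difference 0.79, SE 0.19, adjusted p = 0.213), Il2ra was at 1.40 and Bcl6, a repressor that active STAT5 lowers, at −1.08 (adjusted p = 0.0714). Of the 21 genes of this list 0 passed, and the median was 0.08. Among the 21, 5 were higher and 1 lower at an unadjusted p under 0.05 (limma), beside 5.31% and 4.11% of all genes. The start region of Cish (chr9:107296409-107296708, plus strand; RefSeq, GRCm38.p6) is shown with its matches to TTCNNNGAA, the palindrome that STAT5 binds, in capitals; it reads the same on either strand.
Cish: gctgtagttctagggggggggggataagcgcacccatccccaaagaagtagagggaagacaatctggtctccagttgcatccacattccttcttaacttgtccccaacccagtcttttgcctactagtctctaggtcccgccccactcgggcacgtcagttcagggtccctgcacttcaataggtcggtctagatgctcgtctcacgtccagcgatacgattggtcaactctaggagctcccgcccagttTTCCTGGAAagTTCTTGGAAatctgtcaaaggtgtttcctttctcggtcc

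It holds 2 matches side by side, and 8.3% of the promoter windows hold at least 1. Of 19 windows listed for 16 of the genes that rose, 3 held the motif, those of Ctla2a and Gzmb. Windows were listed for 5 of the 9 genes that fell, and 1 of these 5, that of Fgl2, held the motif.

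Over 16 feedback genes of the MAP kinase pathway the median was 0.14, with 0 past the test over all genes. Among the 16, 3 were higher at an unadjusted p under 0.05 (limma), beside 5.31% of all genes. Ier3 was at 0.51, Phlda1 at 0.40, Spred1 at 0.36 and Dusp4 at 0.28. Against BCR-ABL, 3 of these 16 were lower at an unadjusted p under 0.05 (limma), beside 2.49% of all genes. Phlda1, 1 of the 3, was at −0.49 (95% interval −0.79 to −0.18). Genes of PI3 kinase, Akt and FoxO had a median of 0.02 over 15 members, and 0 had an unadjusted p under 0.05 (limma), with Foxo1 at −0.66, Foxo3 at 0.31, Pik3ip1 at −0.27 and Inpp5d at −0.21. Foxo1 was at −0.143 without vector replicate 1, and Foxo3 at 0.043 without vector replicate 2. Among 16 Abl, Bcr and adaptor genes, 0 passed and the median was 0.02; Abi2, an Abl interactor, was at 0.53, Dok2 at 0.36, Abl2 at 0.39 and Shc1 at −0.31. Wnt and TGF-beta genes had a median of 0.09 over 19 members, with Smad4 at 0.40, Ctnnb1 (beta-catenin) at 0.26, Tgfbr3 at 0.35 and Lef1 at −1.16, none of which passed. Lef1 was at −0.216 without vector replicate 1 and at −2.106 without vector replicate 2.

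Alox5, the lipoxygenase that starts leukotriene synthesis, read 7.97 and 8.12 in vector and 9.07 and 9.12 in BCR-ABL-Blk cells. The groups lay apart by far more than the replicates did, and the difference of 1.05 (SE 0.15) had an adjusted p of 0.0661. In BCR-ABL cells it read 9.39 and 9.66, and BCR-ABL-Blk differed from these by −0.43 (95% interval −0.79 to −0.08). Of the 17 leukotriene and prostanoid genes 0 passed, and the median was 0.04, or 0.248 without vector replicate 1. Among the 17, 5 were higher and 0 lower at an unadjusted p under 0.05 (limma), beside 5.31% and 4.11% of all genes. Thromboxane synthase Tbxas1 was at 1.24 (adjusted p = 0.0941), the phospholipase Pla2g4a at 0.54 and Alox12 at 0.44. A list of 24 leukemic stem cell regulators, which shares Alox5, Bcl6, Il2ra and Mecom with the lists above, had a median of 0.04 and 0 past the test.

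DNA replication and G1/S genes had a median of 0.01 over 21 members with 0 past the test, and Rrm2, a subunit of ribonucleotide reductase, was at −0.32 (adjusted p = 0.204), Cdc45 at −0.31, Slbp at −0.24 and Rrm1 at 0.13. G2/M genes had a median of −0.04 over 24 members, 0.13 without normalization between arrays, with 11 above 0 and 13 below; Aurkb was at −0.33, Ube2c at −0.22, Ttk at 0.19, Cdk1 at 0.15 and Mki67, the proliferation antigen Ki-67, at −0.11. Of 12 CDK inhibitor and cyclin D genes 0 passed and the median was −0.01; Cdkn1c, the inhibitor p57 of quiescent stem cells, read 7.34 and 7.40 in vector and 7.73 and 8.06 in BCR-ABL-Blk cells (difference 0.52, SE 0.14, adjusted p = 0.287). Cdkn2c was at −0.35, Rb1 at −0.28 and Ccnd2 at 0.17. Cdkn1b differed by 0.04 and Myc by −0.06, both with a sign that other settings turned. Among 16 Bcl2 family and p53 genes 0 had an unadjusted p under 0.05 (limma), with Trp53inp1 at −0.56, Bak1 at −0.35, Pmaip1 at −0.21 and Phlda3 at 0.20. Trp53inp1 was at −0.117 without vector replicate 1.

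Interferon response genes had a median of −0.20 over 20 members, which was −0.01 without vector replicate 1. Ifitm1 rose over all genes, while 5 were lower at an unadjusted p under 0.05 (limma), beside 4.11% of all genes. Gbp3, a guanylate-binding protein, read 9.22 and 8.94 in vector and 8.18 and 8.31 in BCR-ABL-Blk cells (difference −0.83, SE 0.15, adjusted p = 0.103), Mx1 was at −0.53 and Ifitm3 at 0.16. In the list of stress and dissociation genes, the metallothioneins stood apart. Mt1 read 11.33 and 11.72 in vector and 10.28 and 9.60 in BCR-ABL-Blk cells (difference −1.59, SE 0.23, adjusted p = 0.0645), and Mt2 read 10.90 and 10.39 against 9.04 and 9.07. In BCR-ABL cells Mt1 read 10.81 and 10.62 and Mt2 9.87 and 9.45, between the other groups. The median of all 19 was −0.04, but −0.24 without vector replicate 1 and 0.31 without vector replicate 2. The chaperone Hspb1 was at 0.52 and Gadd45b at −0.33.

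Of 19 glycolysis and hypoxia genes 0 passed, and the median was 0.12, or 0.011 without BCR-ABL-Blk replicate 1. Among the 19, 4 were higher at an unadjusted p under 0.05 (limma), beside 5.31% of all genes. The glucose transporters Slc2a3 and Slc2a1 were at 0.59 and 0.43, Aldoc at 0.46 and Pfkl at 0.32. Cholesterol and fatty acid synthesis genes had a median of 0.11 over 17 members, with Acaca at 0.43, Stard4 at 0.40, Idi1 at 0.62 and Scd2 at 0.34. Genes of the unfolded protein and integrated stress responses had a median of −0.13 over 20 members, 0.03 without normalization between arrays; Sesn2 was at 0.61 (adjusted p = 0.102), Manf at −0.27, Sdf2l1 at −0.54 and Hspa5 at −0.14. Ribosomal protein genes, which served as a quality list, had a median of 0.004 over 14 members, with Rps19 at −0.15, Rpl10a at −0.05, and Rps6 and Rpl5 each at 0.04; with median centring the signs of Rps6 and Rpl5 turned, and without normalization that of Rpl10a.

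**Figure D5:**
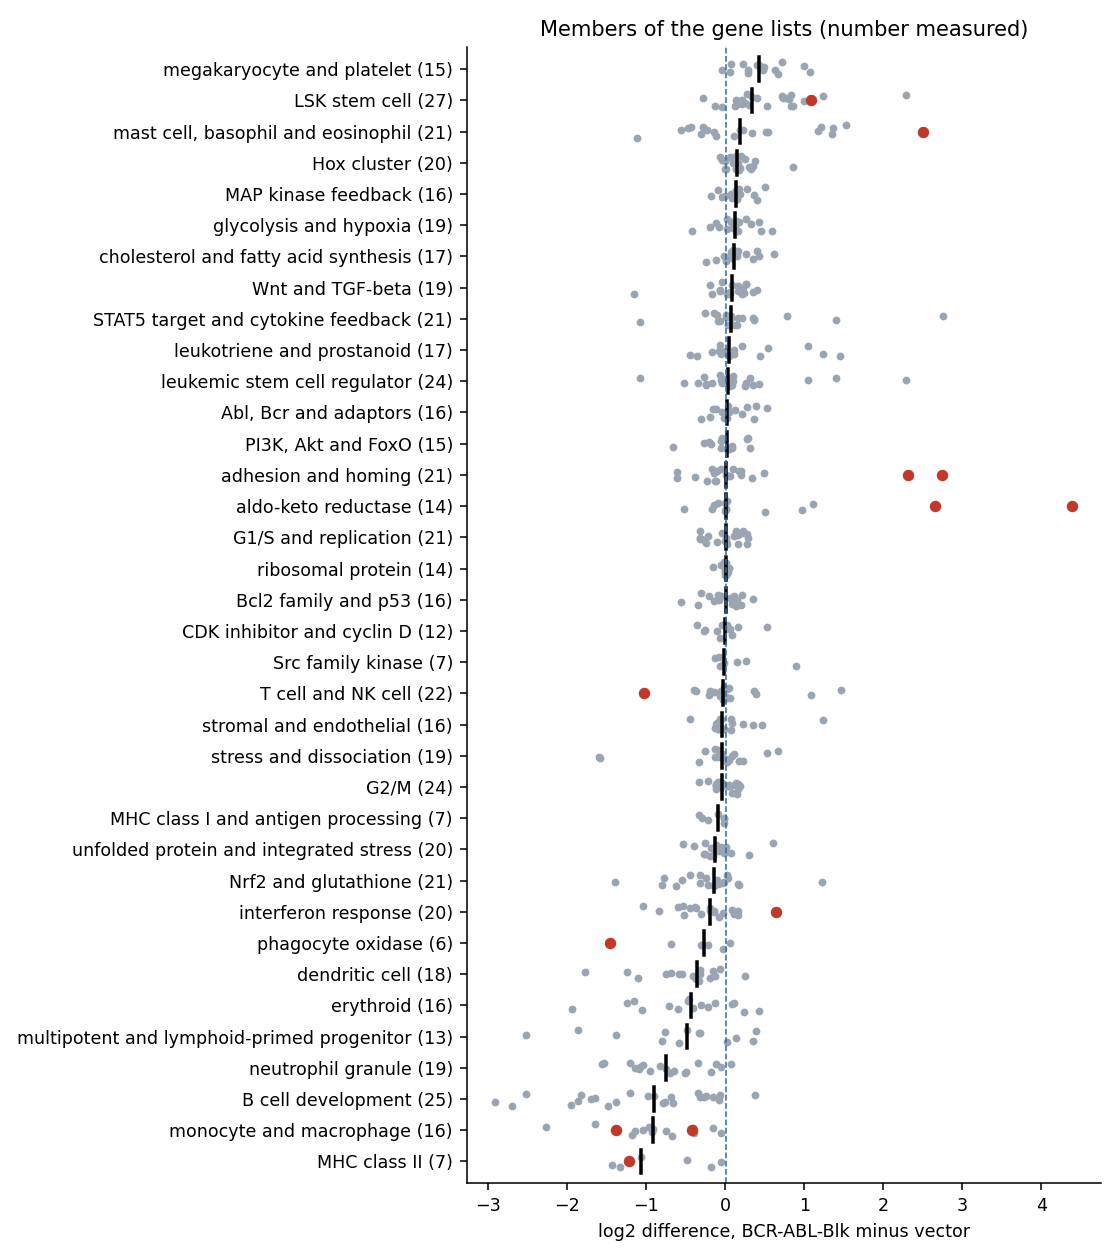
Log2 difference of BCR-ABL-Blk minus vector (x axis) for each measured member of 36 gene lists, with the list's median as a black bar, genes called over all genes in red and the median of all genes as a dashed line. Medians run from −1.06 for MHC class II genes to 0.42 for megakaryocyte and platelet genes.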

How the data were processed

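RNA of sorted LSK cells was measured on 6 arrays, 2 per group. The deposited values are log2 levels per probe set, made with RMA in Affymetrix Expression Console 1.1 per the submitters' processing notes, which give no options or genome build. The deposited arrays did not share a distribution, so all 35557 probe sets were quantile normalized. Of 23410 probe sets in the platform annotation 21789 carried 1 gene symbol, and the probe set with the highest mean stood for each of 19938 genes; 1621 with several symbols and 12147 not listed there were left unnamed. The 6 arrays were fitted in limma 3.58.1 (R 4.3.3; lmFit, eBayes with a trend, 3 residual degrees of freedom, 2-sided), with Benjamini-Hochberg adjustment over all genes and a threshold of 0.05. Precision is given as the standard error or the 95% interval of a difference.

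Genes were named by rule: Blk, Abl1, Bcr, Myc, Cdkn1b, Ebf1 and Pax5; the 14 largest rises and falls past the threshold with groups that did not overlap and a higher mean above the median level, small RNAs and predicted genes aside, with places left filled by the smallest p; and up to 4 genes with the smallest p of each list. The remaining called genes, and Kit, Akr1b10, Itgb2, Plxdc2, F13a1, Ciita, Cd3d, Cd3e, Cpa3, Fcer1a and Mki67, were named after their values were seen. The 36 lists hold 687 entries, of which 621 were measured, 3 through a synonym, 2 were second names of genes already listed and 64 were not used here; 580 distinct genes remain. The members and lists were chosen with earlier results of these data known, so lists are described by counts and medians, without a test. The alternatives were the deposited values without normalization, centring on the median, only the 4 arrays compared, a replicate block, other eBayes settings, array weights, a filter on low levels, the mean of a gene's probe sets, and each array left out. Promoter windows come from a RefSeq table (GRCm38.p6), by symbol.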

Additional observations from a re-analysis of the deposited data

How the results depend on the processing

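In the deposited values, without normalization, the test called 562 genes higher and 170 lower than in vector cells, in place of 19 and 9. Against BCR-ABL, 79 genes differed in place of 0. The spread was also estimated differently there. The prior degrees of freedom, the weight eBayes gives to the spread shared by genes, were infinite, against 4.4 in the main fit. What each change adds to these counts was not tested. Other counts, higher and lower, were 40 and 31 after median centring of the arrays, 4 and 0 with only the 4 arrays compared, 4 and 0 in eBayes without a trend, 34 and 24 in its robust form, 12 and 2 with array weights, and 43 and 28 over the 9969 genes above the median level, where fewer genes were tested. Leaving out 1 array gave 4 to 339 higher and 0 to 221 lower genes, and 0 to 2 that differed from BCR-ABL. Where not stated, the cause was not tested. The labels do not say whether same-numbered samples were paired. Deviations from the group mean on same-numbered vector and BCR-ABL-Blk arrays correlated with r = 0.0841. For vector and BCR-ABL arrays r was −0.0618 and for the remaining pair of groups 0.0334. With 2 arrays per group, the deviations of both mirror each other, so these values cannot decide whether same-numbered samples were handled together. With the replicate number as a block, 18 genes were higher and 5 lower.

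Of the 28 called genes, 26 were also called in the deposited values, 21 after centring, 4 with only the 4 arrays compared, 4 without a trend, 27 in the robust form, 14 with array weights, 15 with the replicate block, 23 above the median level and 28 with the mean of a gene's probe sets. None of the 28 changed sign under any alternative run. Signs turned only for genes that did not pass. Without normalization Blk was at 0.08, Myc 0.075, Tap2 0.09, Fgr 0.005 and Rpl10a 0.035; with centring Rps6 was at −0.05 and Rpl5 at −0.03; with the mean of probe sets Bcr was at −0.008. Leaving out 1 array, Blk ran from −0.168 to 0.027, Myc from −0.138 to 0.009, Cdkn1b from −0.208 to 0.281, Abl1 from −0.137 to 0.168, Bcr from −0.032 to 0.092, Tap2 from −0.218 to 0.031, Cyba from −0.477 to 0.032 and Fgr from −0.414 to 0.144, with vector replicate 1 or 2 left out at both ends of each range. Leaving out 1 array of the groups compared turned the sign or moved the value by over 1.5 times for 0 of the 28 called genes, for 59 of 137 other genes named by the rule and for 29 of 36 list medians, the exceptions being the monocyte, dendritic cell, MHC class II, neutrophil, megakaryocyte, stem cell and multipotent progenitor lists. Signal over background was not measured, and 2 arrays per group limit the precision.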
